A study of Mus musculus with 6 samples.

Results

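Genes with a LINC symbol are long intergenic noncoding RNAs, that is, long transcripts with no known protein that lie between the annotated coding genes and are numbered because most have no described role. The LINC genes analysed here were those whose symbol is LINC followed by 5 digits and whose expected counts summed to at least 300 over the 6 samples. Of the 1927 genes with such a symbol among 58870 genes in the table, 125 met this minimum, 1802 fell under it and 1060 of those had no count in any sample. The 125 genes had 762 annotated isoforms of the 208621 in the table.

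Long intergenic noncoding RNAs are transcribed, spliced and often polyadenylated like messenger RNAs, but most are expressed at low levels and in a restricted set of cell types. A few act on the gene beside them, bind proteins or host a microRNA, and some loci first annotated as noncoding were later found to encode a small peptide. Splicing regulators of the Rbfox family bind GCAUG elements in introns of precursor RNAs and change which exons are joined, and precursor RNAs of noncoding genes carry introns too. Libraries were made from polyadenylated RNA, so transcripts without a poly(A) tail are under-sampled.

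The samples were 77-5 cells, 1 clone of the line T-REx-293 into which a minigene of mouse Ntrk2 (TrkB) was placed on a bacterial artificial chromosome (BAC RP23-424E11). T-REx-293 is a derivative of the human embryonic kidney line HEK293 that expresses the tetracycline repressor. Per the study, Rbfox1 was knocked into the cells and is induced by doxycycline, whereas parental T-REx cells showed none on western blot. Untreated cells (No Dox, n = 3) were compared with cells given doxycycline (Dox, n = 3; 0.5 mg/ml for 48 h per the labels). The cells and the tabulated transcripts were human, although the organism given by GEO's labels is mouse. All samples came from 1 clone and no source says that they were separate cultures, so p-values measure the spread between these samples, which may be technical. The unit of this dose is uncertain, because legends in the study write micrograms where its labels write milligrams. Doxycycline and Rbfox1 were added together, and their effects cannot be told apart.

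RBFOX1 was at 6.92 to 8.42 TPM (abundance scaled for transcript length and library total) in No Dox and at 186.4 to 189.8 TPM in Dox, so each sample matched its label. Total expected counts were 59822964 to 65774104 per sample. All 10 markers listed for T-REx-293 were detected, with VIM, a filament protein, at 691.9 TPM in No Dox and 665.6 TPM in Dox, and 3 of them rose and 6 fell by edgeR (24.9% and 26.5% of all genes tested). Of 18 markers of fibroblasts, leukocytes, hepatocytes, erythroid and endothelial cells, 15 had a mean under 1 TPM in both groups, and TTR and HBB were among those at 0. The other 3 were HBA1, a globin, at 15.4 TPM in No Dox and 18.9 TPM in Dox, LUM, a matrix proteoglycan, at 3.68 and 6.50 TPM, and COL1A1, a collagen, at 4.55 and 4.6 TPM. Of the 7 that could be tested 4 rose, HBA1 and LUM among them, against 24.9% of all genes tested. The summed level of those 18 markers was 22.6 to 26.0 TPM in No Dox and 29.8 to 34.3 TPM in Dox, and the part of this difference in the results was not tested. In bulk RNA, fewer cells with a transcript and less of it per cell cannot be told apart.

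To describe how much RNA these genes contribute, their share of all expected counts was first examined. The 125 LINC genes held 0.110% to 0.111% of counts in No Dox and 0.117% to 0.119% in Dox, and the groups did not overlap. An exact permutation test of the share gave p = 0.1 (two-sided), the smallest that 3 against 3 samples allow. Without LINC01128, the member that gained most counts, the share was still 0.108% in each No Dox sample and 0.112% to 0.114% in Dox. On the TPM scale, which divides by transcript length, the members summed to 1087 to 1106 TPM in No Dox and 1120 to 1153 TPM in Dox.

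Most of these RNAs were scarce. The median of their mean levels was 4 TPM, against 9.92 TPM over all 18264 genes tested, and 114 of 125 reached 1 TPM, 29 reached 10 TPM and 2 reached 50 TPM. Levels ran from 0.307 to 183.8 TPM. LINC00665 alone held 15.5% to 17.2% of the summed TPM of the members, and the 8 most abundant together held 40.3% to 41.2%. Of the 125 genes, 26 had a single annotated isoform and LINC00511 had 106.

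LINC00665 (ENSG00000232677.7), a locus studied in tumour cells that encodes the micropeptide CIP2A-BP, was the most abundant member. It measured 187.2, 186.6 and 186.4 TPM in No Dox and 183.4, 179.9 and 179.2 TPM in Dox. Each Dox sample was lower than each No Dox sample, but by a small margin. The log2 fold change of its counts was −0.13 ± 0.02 (SE; edgeR adjusted p = 0.00024), whereas limma on log2(TPM + 0.1) gave −0.05 and an adjusted p of 0.11.

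Several of the next members in abundance changed little in total level. LINC02381 had 57.9 ± 0.75 TPM (SD, n = 3) in No Dox and 58.7 ± 0.50 TPM in Dox and was not called changed (adjusted p = 0.66 by edgeR). LINC01578, also known as CHASERR, lies beside the chromatin remodeller gene CHD2 and limits its expression in cis. It stood at 46.9, 46.9 and 44.7 TPM in No Dox and at 45.1, 44.3 and 49.1 TPM in Dox, with overlapping groups and a log2 fold change of −0.06 ± 0.05 (adjusted p = 0.34 by edgeR). LINC00662, often studied in tumour cells, had 37.4 ± 0.34 and 39.4 ± 0.83 TPM with no overlap between the groups. It was not called either (log2 fold change of 0.03, adjusted p = 0.56 by edgeR).

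Among the same 8 genes, 4 were called higher in Dox (24.9% of all genes tested, and 26.8% of those with at least 300 counts). LINC01515 rose from 22.8, 24.1 and 23.0 TPM to 28.7, 29.1 and 33.7 TPM (log2 fold change of 0.34 ± 0.06, adjusted p = 0.00031 by edgeR). LINC01535 rose from 26.0 ± 1.2 to 30.6 ± 2.3 TPM (0.36 ± 0.06, adjusted p = 0.00016 by edgeR). In both, every Dox sample exceeded every No Dox sample.

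The other 2 calls were fragile. LINC02210 had 42.4 ± 2.4 TPM in No Dox and 49.8 ± 1.8 TPM in Dox with a log2 fold change in counts of 0.09 ± 0.04 (adjusted p = 0.045 by edgeR). Its call was lost without Dox replicate 1 (adjusted p = 0.084), Dox replicate 2 (0.13), No Dox replicate 2 (0.11) or No Dox replicate 3 (0.24) by edgeR, with no filter on low counts (0.13) and with DESeq2 (0.13), and the table also lists a read-through gene, LINC02210-CRHR1, that could share its reads. LINC01002 had 27.4 ± 1.8 and 31.6 ± 2.5 TPM, its groups overlapped, and its log2 fold change of 0.15 ± 0.05 had an adjusted p of 0.034 by edgeR. That call was lost without any 1 of 5 samples, with an edgeR adjusted p of 0.13 (Dox replicate 1), 0.085 (Dox replicate 2), 0.059 (No Dox replicate 1), 0.11 (No Dox replicate 2) and 0.072 (No Dox replicate 3), and also with no filter on low counts (0.080) and with DESeq2 (0.13).

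**Figure D1:**
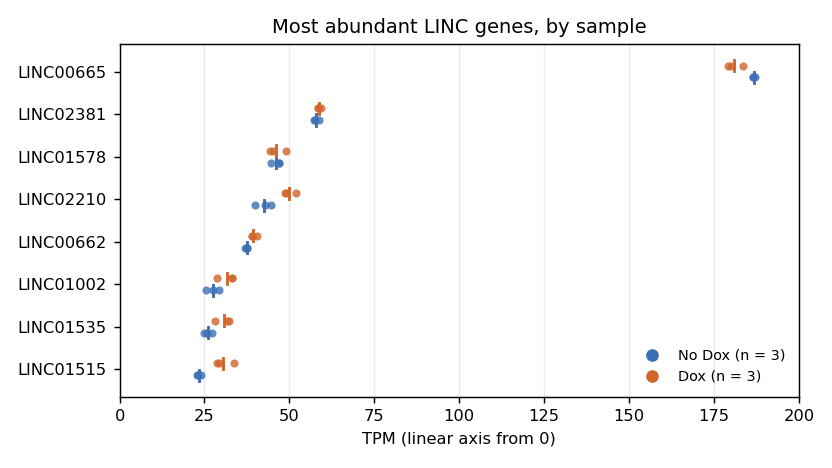
Level in TPM (linear axis from 0) of the 8 LINC genes with the highest mean level, with 1 point per sample, n = 3 per group, and a bar at each group mean. LINC00665 stands at 179.2 to 187.2 TPM, far above LINC02381 at 57.4 to 59.2 TPM, and the No Dox and Dox points of most of the 8 genes lie close together.

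Next, the effect of doxycycline on the 125 genes was tested. All 125 passed the filter on low counts, and 59 were called changed by edgeR (47.2%), against a background of 51.4% over all 18264 genes tested and 58.1% over the 14966 genes with at least 300 counts. Of the members 33 rose (26.4%; background 24.9%, and 26.8% of genes with at least 300 counts). The other 26 called members fell (20.8%; background 26.5%, and 31.4% of genes with at least 300 counts). No test between these shares was made. On the TPM scale with limma, 34 were called higher and 16 lower, so that 68.0% of calls were rises in place of 55.9%. With library size alone as the scaling, 39 were called higher and 22 lower (63.9%). That scaling also moved the tested genes as a whole upward, from a middle value of 0.005 to 0.05 in log2. Background shares under these alternatives are not given here. Whether the larger share of rises is particular to LINC genes was not tested.

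Changes were mostly small. The median log2 fold change of the members was 0.05 and the median size 0.23. These medians were 0.005 and 0.18 over all genes tested, and −0.009 and 0.16 over those with at least 300 counts. The full range of the members was −0.76 to 1.23. The call with a change past 2-fold was made for 3 members (2.40%), against 3.07% of all genes tested and 1.42% of those with at least 300 counts. Of the called members, 11 rose and 5 fell by over 1.5-fold, while 7 rises and 5 falls were under 1.2-fold. Over the members, the log2 level in TPM and the log2 fold change had a Pearson r of −0.08 and a Spearman rho of −0.07, given as a description over 125 genes that share the same 6 libraries.

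The share called varied with depth. Of 68 members with at least 1000 summed counts, 38 were called (55.9%; 61.6% of all genes at that depth), and of 57 with fewer, 21 were called (36.8%; 35.7% of all genes at that depth). The median standard error of the log2 fold change was 0.07 in the former and 0.15 in the latter. TPM values did not overlap between the groups in 68 members (54.4%; background 50.2%, and 55.4% of genes with at least 300 counts), of which 51 were also called (40.8%; background 41.2%, and 46.6% of genes with at least 300 counts).

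**Figure D2:**
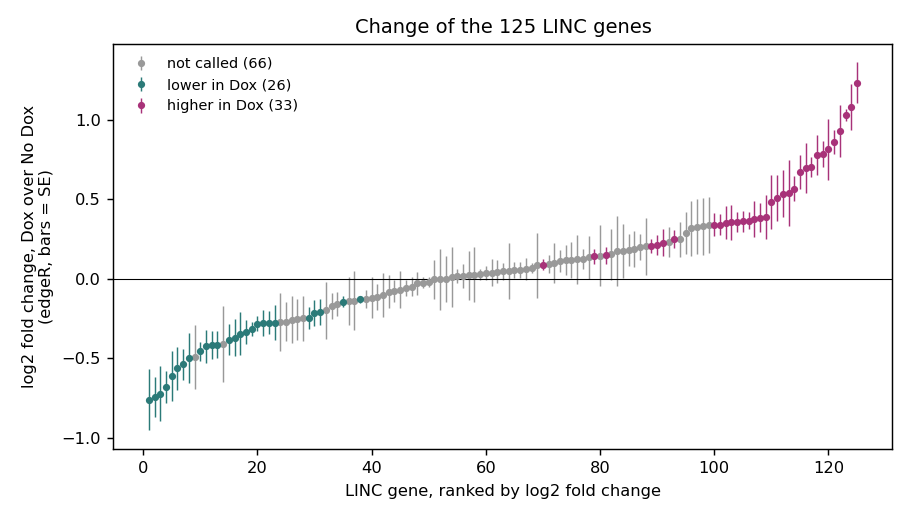
The 125 LINC genes ranked by the log2 fold change of counts, Dox over No Dox (vertical axis, edgeR, bars are standard errors). The values run from −0.76 to 1.23 with 33 genes called higher, 26 called lower and 66 not called, and most lie between −0.5 and 0.5.

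LINC01128 (ENSG00000228794.8) had the best supported rise among the members. Its expected counts were 1345, 1298 and 1374 in No Dox and 2888, 2583 and 2957 in Dox. Counts thus rose 2.04-fold (log2 fold change of 1.03 ± 0.04, adjusted p = 2.6e-12 by edgeR), with no overlap. Its level per length rose less, from 14.5 ± 1.4 to 21.6 ± 1.4 TPM (log2 change of 0.57 by limma), and its isoforms are described further on. Counts and TPM differed by over 0.25 in their log2 changes in 11 members, and in no called member did they differ in sign.

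The largest fold changes were found in genes of low level. LINC01152 (ENSG00000256124.5) rose from 1.04, 0.90 and 1.16 TPM to 1.88, 1.70 and 2.71 TPM, a log2 fold change in counts of 1.23 ± 0.13 (adjusted p = 6.7e-07 by edgeR). LINC01341 (ENSG00000227953.6) rose from 1.51, 1.12 and 0.93 TPM to 2.53, 1.81 and 2.95 TPM, a log2 fold change of 1.08 ± 0.14 (adjusted p = 1.1e-05 by edgeR). In neither gene did a Dox sample fall within the No Dox range, although the Dox samples were spread more widely. With LINC01128 these were the 3 members past 2-fold in counts.

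Several moderately expressed members rose as well. LINC01670 (ENSG00000279094.3) went from 10.0, 9.16 and 10.9 TPM to 20.4, 17.5 and 17.6 TPM (log2 fold change of 0.86 ± 0.08, adjusted p = 1.4e-07 by edgeR). LINC00476 (ENSG00000175611.11) went from 5.60, 5.36 and 5.79 TPM to 9.85, 9.80 and 10.2 TPM (0.78 ± 0.08, adjusted p = 9.3e-07 by edgeR). LINC01719 (ENSG00000233396.7) went from 5.34, 5.70 and 6.01 TPM to 9.34, 10.2 and 9.71 TPM (0.70 ± 0.06, adjusted p = 1.0e-07 by edgeR). Replicates of these 3 genes lay close together and the groups were well separated.

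The remaining members among the 12 largest rises were LINC01197, LINC00242, LINC01801, LINC02086, LINC02226 and LINC01106, with log2 fold changes of 0.57 to 0.93. LINC02226 rose from 2.32 ± 0.23 to 3.79 ± 0.26 TPM, and LINC01106 from 2.54 ± 0.13 to 3.86 ± 0.09 TPM. LINC00242 had the lowest level, with 0.41, 0.37 and 0.39 TPM in No Dox and 0.70, 0.84 and 0.60 TPM in Dox. All 12 stayed called in each alternative of tool, scaling, filter and left-out sample that gave a value for them. A further 21 members rose with log2 fold changes of 0.09 to 0.54, among them LINC00472, studied in breast tumours, which rose from 3.12 ± 0.19 to 4.03 ± 0.44 TPM (0.36 ± 0.05, adjusted p = 2.7e-05 by edgeR).

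Falls were smaller than the largest rises, and none reached 2-fold. LINC01976 (ENSG00000261514.1) fell from 21.1, 24.99 and 25.6 TPM to 15.6, 16.5 and 14.2 TPM (log2 fold change of −0.68 ± 0.10, adjusted p = 3.8e-05 by edgeR). LINC01089 (ENSG00000212694.8), also known as LIMT, which is repressed by epidermal growth factor in mammary cells, fell from 21.9, 21.1 and 21.7 TPM to 17.7, 15.8 and 15.5 TPM (−0.46 ± 0.06, adjusted p = 1.0e-05 by edgeR). These were the most abundant of the 12 largest falls, and in both the groups did not overlap.

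LINC00511 (ENSG00000227036.7), studied as a tumour-promoting RNA in breast and lung, fell from 1.70, 2.08 and 1.86 TPM to 1.30, 1.11 and 1.24 TPM (−0.74 ± 0.13, adjusted p = 0.00012 by edgeR). LINC02043 (ENSG00000232233.1) fell from 0.95, 0.90 and 1.23 TPM to 0.54, 0.74 and 0.60 TPM (−0.76 ± 0.19, adjusted p = 0.0035 by edgeR). LINC01569 (ENSG00000262468.6) fell from 5.24, 4.88 and 5.57 TPM to 3.26, 3.19 and 3.23 TPM (−0.42 ± 0.09, adjusted p = 0.0011 by edgeR). Dox samples of LINC01569 were nearly identical, whereas those of LINC02043 varied more.

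LINC00852, LINC01315, LINC00638, LINC01963 and LINC00843 fell with log2 fold changes of −0.72 to −0.41. LINC00843 fell from 6.64 ± 1.07 to 5.08 ± 0.34 TPM and LINC00638 from 3.53 ± 0.22 to 2.50 ± 0.35 TPM. LINC00937 fell by edgeR (−0.38 ± 0.10, adjusted p = 0.0035) but not on the TPM scale by limma (adjusted p = 0.084). LINC01786 had 10.2 ± 1.4 and 7.44 ± 0.71 TPM and was called lower (−0.50 ± 0.16, adjusted p = 0.014 by edgeR), but its call was lost by edgeR without Dox replicate 2 (adjusted p = 0.055) or No Dox replicate 3 (0.071), and with DESeq2 (0.072). Another 14 members fell with log2 fold changes of −0.61 to −0.13. The most negative of these was LINC00173, whose TPM values overlapped between the groups.

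Summed over the members called higher, levels were 252.8 to 254.0 TPM in No Dox and 320.5 to 340.4 TPM in Dox. Summed over those called lower, they were 380.7 to 389.7 TPM in No Dox and 330.9 to 342.1 TPM in Dox. These sums follow from the calls and serve as a description of their size.

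**Figure D3:**
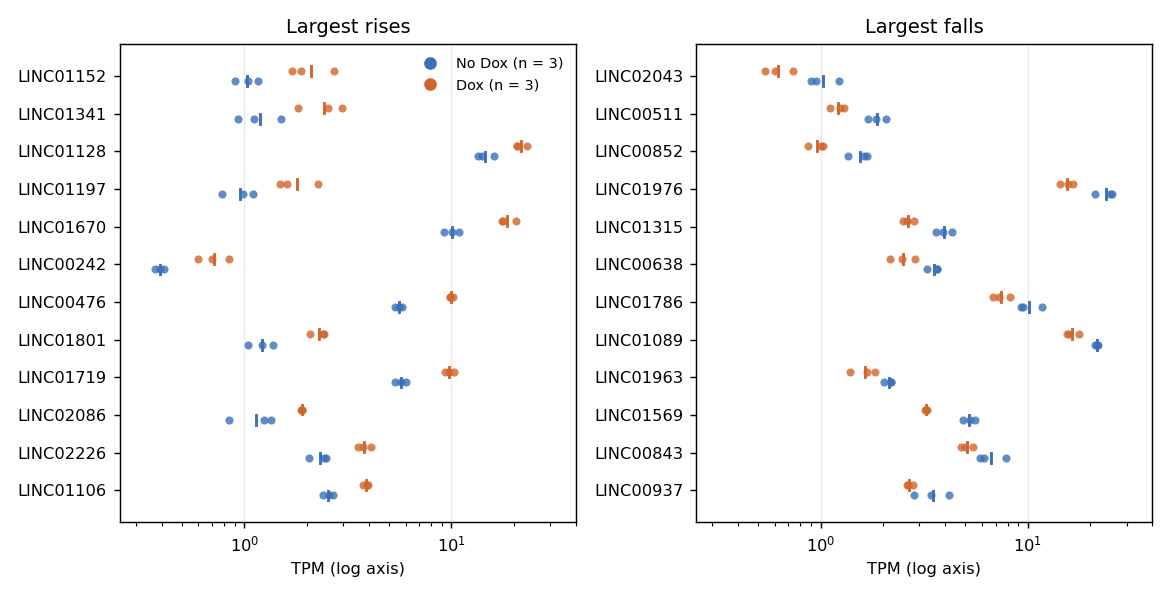
Level in TPM (log axis) of the 12 largest rises (left) and the 12 largest falls (right) among called LINC genes with no overlap between groups, with 1 point per sample, n = 3 per group, and a bar at each group mean. LINC01128 and LINC01670 are the most abundant of the rises, LINC01976 and LINC01089 of the falls, and LINC00242 has the lowest level at 0.37 to 0.84 TPM.

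Loci with a described role were then examined as lists from background knowledge. Of 16 loci often studied in tumour cells, 14 were in the table under the symbols listed, 13 were tested and 11 were members. Other symbols of the absent loci were not searched. Of the 13 tested, 1 rose and 2 fell (24.9% and 26.5% of all genes tested), with a median log2 fold change of 0.02 beside 0.005 over all genes. LINC00667 rose from 15.2 ± 0.29 to 16.7 ± 0.58 TPM (0.21 ± 0.04, adjusted p = 0.00060 by edgeR; 0.13, adjusted p = 0.051 by limma on TPM). The falls were those of LINC00511 and LINC00665 given above.

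Other members of the tumour list did not pass the test. LINC00205 had 23.4 ± 1.6 and 24.7 ± 1.4 TPM (log2 fold change of 0.07, adjusted p = 0.069 by edgeR) and was called higher by edgeR without Dox replicate 3 (0.10, adjusted p = 0.0036), with a filter of 1 CPM in 3 samples (adjusted p = 0.025) and with library size alone (adjusted p = 0.0046). LINC00839 had 4.28 ± 0.37 and 3.90 ± 0.22 TPM (−0.17, adjusted p = 0.091 by edgeR) and was called lower without No Dox replicate 3 (−0.24, adjusted p = 0.026 by edgeR). LINC00460 had 2.83 ± 0.31 and 2.07 ± 0.13 TPM with no overlap between the groups (−0.25, adjusted p = 0.11 by edgeR; adjusted p = 0.020 by limma on TPM). LINC00963, LINC00958, LINC00888, LINC00662 and LINC01116 had log2 fold changes of −0.08 to 0.18.

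Of 4 loci listed as hosts of a microRNA or a circular RNA, 2 were in the table under the symbols listed and neither passed the test. LINC00461, a host of miR-9-2, was at 0.98, 1.11 and 0.95 TPM in No Dox and at 0.98, 1.11 and 1.29 TPM in Dox (0.10 ± 0.12, adjusted p = 0.53 by edgeR). LINC00632, the precursor of the circular RNA CDR1as, was at 7.78 ± 0.60 and 7.49 ± 0.68 TPM (0.02 ± 0.04, adjusted p = 0.78 by edgeR). Circular RNA lacks a poly(A) tail, and these values are for the linear transcripts that the table annotates.

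Of 5 loci listed for gene regulation or stress, 2 were in the table under the symbols listed, LINC01578 (above) and LINC00467. LINC00467, which N-Myc represses in neuroblastoma cells, had 12.04 ± 2.1 and 10.9 ± 1.4 TPM (−0.13 ± 0.06, adjusted p = 0.076 by edgeR), and it was called lower by edgeR without Dox replicate 3 (−0.19, adjusted p = 0.0079) and with no filter on low counts (adjusted p = 0.046). The 7 LINC symbols listed because they were later found to encode a small protein were not in the table under those symbols.

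To compare isoforms, each isoform of a member was tested with limma-voom. Of 762 isoforms 356 passed the filter, and 34 were called (9.55%; background 12.6% of 72438 isoforms), 25 higher (7.02%; background 6.19%) and 9 lower (2.53%; background 6.44%). They belonged to 28 genes. Of the 34, 19 lay in genes that rose, 11 in genes that fell and 4 in genes not called. The count of 34 fell to 17, 17 and 18 without Dox replicates 1, 2 and 3, and to 16, 17 and 15 without No Dox replicates 1, 2 and 3. Shares of all isoforms called in those smaller fits are not given here, so the drop is not particular to LINC isoforms as far as shown.

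Isoform usage asks whether an isoform changed differently from the rest of its gene. Of 77 members with at least 2 isoforms past the filter, 13 had changed usage by limma diffSplice (16.9%; background 27.5% of 12328 genes). Of these, 8 were also called at the gene level and 5 were not. With edgeR's diffSpliceDGE 3 were called (3.90%; background 9.91%), namely LINC00665, LINC01128 and LINC00680. In 35 of the 77 genes no isoform moved by 5 points of isoform percentage, the percent of a gene's abundance that RSEM assigns to an isoform.

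LINC00665 had the smallest usage p-value among the members (adjusted p = 2.1e-07 by limma diffSplice). Its isoform LINC00665-209 (1375 bases) held 43.5%, 44.6% and 44.1% of the gene in No Dox and 36.3%, 37.4% and 37.6% in Dox. LINC00665-202 (690 bases) moved the other way, from 8.46% ± 0.54 to 12.9% ± 0.36. LINC00665-201 (715 bases) was a minor form, at 0.67 ± 0.10 TPM in No Dox and 3.62 ± 0.26 TPM in Dox, with a log2 fold change of 2.38 ± 0.27 (adjusted p = 0.0028 by limma-voom). LINC00665 was the single member with isoforms called in both directions, while its total fell by 0.13 on the log2 scale.

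In LINC01128 usage moved toward a long form (adjusted p = 1.9e-06 by limma diffSplice). LINC01128-205 (6606 bases) held 25.4%, 28.3% and 23.6% of the gene in No Dox and 42.9%, 41.6% and 37.9% in Dox. Its level rose from 3.72 ± 0.13 to 8.80 ± 0.13 TPM (log2 fold change of 1.23 ± 0.05, adjusted p = 4.6e-05 by limma-voom). LINC01128-207 (874 bases) went from 30.3% ± 3.7 to 12.6% ± 6.7. LINC01128-202 (612 bases) was listed at 0 in the No Dox samples and at 4.89%, 22.0% and 9.97% in Dox, and did not pass the isoform test (adjusted p = 0.24 by limma-voom).

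Among the tested isoforms of the 13 genes with called usage, the largest shift in percentage was in LINC00680. Its total did not pass the test (17.1 TPM in No Dox and 17.3 TPM in Dox, log2 fold change of 0.03, adjusted p = 0.55 by edgeR). LINC00680-201 (1621 bases) held 8.82%, 0% and 4.17% in No Dox and 34.0%, 30.8% and 24.0% in Dox. LINC00680-202 (1666 bases) held 41.8%, 51.2% and 52.3% in No Dox and 22.1%, 31.9% and 26.0% in Dox. The 2 forms thus moved in opposite directions without overlap, with a usage adjusted p of 0.0015 by limma diffSplice. Only LINC00680-202 passed the isoform test on its own (log2 fold change of −0.87 ± 0.15, adjusted p = 0.012 by limma-voom). A larger shift in a gene that was not called was that of LINC00460-202 (857 bases), from 68.4%, 60% and 41.2% to 38.0%, 13.9% and 20.4% (usage adjusted p = 0.069 by limma diffSplice).

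Other members were called changed in usage by limma diffSplice, but not by diffSpliceDGE, with little or no change in total. LINC02609-206 (706 bases) rose from 18.3%, 22.8% and 20.1% to 34.5%, 42.1% and 45.5% of LINC02609 (usage adjusted p = 0.0039 by limma diffSplice), a gene whose total did not pass in counts (0.06, adjusted p = 0.48 by edgeR) but did on the TPM scale (0.24, adjusted p = 0.046 by limma). LINC01184-201 went from 13.7% ± 2.4 to 22.1% ± 3.8 (usage adjusted p = 0.0013 by limma diffSplice). LINC01001-202 went from 32.5% ± 8.8 to 46.7% ± 5.3 (usage adjusted p = 0.038 by limma diffSplice). The total of LINC01001 behaved likewise (0.04, adjusted p = 0.65 by edgeR; 0.30, adjusted p = 0.024 by limma on TPM). Its usage call was lost without Dox replicate 2 (adjusted p = 0.18), Dox replicate 3 (0.066), No Dox replicate 1 (0.091) or No Dox replicate 3 (0.24), and with the F test of diffSplice (0.060).

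The members that follow, whose total was also called, likewise had usage calls by limma diffSplice but not by diffSpliceDGE. LINC00894-204 went from 17.9%, 31.5% and 22.0% to 8.04%, 7.15% and 3.64% of LINC00894 (usage adjusted p = 0.00032 by limma diffSplice). The total of LINC00894 fell in counts (−0.37 ± 0.12, adjusted p = 0.014 by edgeR), but not with DESeq2 (adjusted p = 0.062), on the TPM scale (adjusted p = 0.89 by limma) nor without No Dox replicate 1 (adjusted p = 0.085 by edgeR). LINC00937-205 went from 29.0%, 45.5% and 43.1% to 24.6%, 22.2% and 18.97%, and LINC00937-207 from 16.6% ± 2.4 to 28.8% ± 1.7 (usage adjusted p = 9.7e-05 by limma diffSplice). In both genes the groups did not overlap for these isoforms.

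LINC00909-202 went from 66.1% ± 4.2 to 51.0% ± 1.3 (usage adjusted p = 0.011 by limma diffSplice; 0.072 without No Dox replicate 3). The total of LINC00909 was called higher (0.21 ± 0.06, adjusted p = 0.012 by edgeR), but not without No Dox replicate 1 (adjusted p = 0.071) or No Dox replicate 3 (0.060). LINC00472-207 (7544 bases) went from 34.0% ± 2.4 to 26.5% ± 2.2 while LINC00472-209 (9515 bases) went from 30.6% ± 1.5 to 36.9% ± 2.6. The usage call of LINC00472 (adjusted p = 0.037 by limma diffSplice) was lost without any 1 of Dox replicates 1, 2 and 3 (0.095, 0.12 and 0.14) or No Dox replicates 1 and 2 (0.14 each), and with isoforms of at least 10 percent (0.20). Because RSEM has to apportion reads that fit several isoforms, each of these percentages is an estimate from its model.

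**Figure D4:**
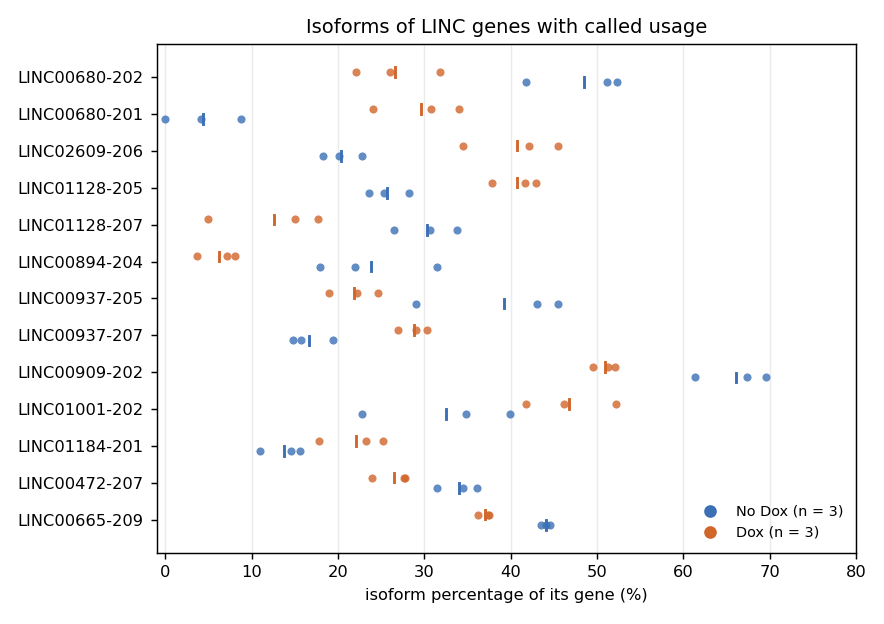
Isoform percentage (percent of the gene's abundance, linear axis from 0) of 13 isoforms of the 10 LINC genes with usage called by limma diffSplice and the largest shift, with 1 point per sample, n = 3 per group, and a bar at each group mean. LINC00680-201 moves from 0% to 8.82% in No Dox to 24.0% to 34.0% in Dox, and LINC00665-209 shows the tightest replicates.

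Other classes of noncoding genes, named by their symbols and limited to at least 300 counts, were set beside the LINC genes as counts, with no test between classes. Of all 14966 genes with that minimum, 4005 rose and 4693 fell (26.8% and 31.4%). Of 275 antisense genes (symbol ending in -AS and a number) 85 rose and 50 fell. Of 33 divergent transcripts (-DT) 8 rose and 1 fell, and of 37 hosts of small nucleolar RNAs or microRNAs (SNHG or MIR symbols) 8 rose and 14 fell. Of 5 intronic transcripts (-IT and a number) 2 rose and 0 fell. Of the 125 LINC genes 33 rose and 26 fell. Whether the balance of rises and falls differs between classes was not tested. Among 20 tested long noncoding RNAs of other symbols, taken as a list, 8 rose and 5 fell (24.9% and 26.5% of all genes tested).

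**Figure D5:**
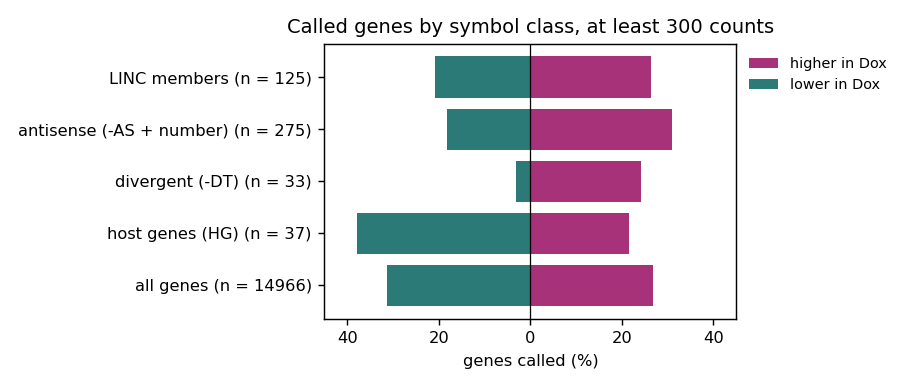
Percent of genes called higher (right) and lower (left) in Dox by edgeR, by class of symbol, for genes with at least 300 summed counts, with the number of genes beside each class. LINC genes have 26.4% higher and 20.8% lower, against 26.8% and 31.4% of all 14966 genes.

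The minimum of 300 counts cut through a continuous range of levels. Just above it stood LINC00327, with 314 counts and 45 to 62 per sample, and LINC02163, with 317 counts and 35 to 77 per sample. Just under it stood LINC02495, with 287 counts and 38 to 59 per sample, and LINC01667, with 288.0 counts and 36 to 63.0 per sample. Of the 1802 LINC genes under the minimum, 107 passed the filter on low counts. Of these, 19 were called higher, 3 lower and 12 past 2-fold (24.9%, 26.5% and 3.07% of all genes tested). Their median log2 fold change was 0.33, beside 0.005 over all genes tested. A gene of such low count could pass that filter through the group where it was higher, so these counts are a description. With a minimum of 100 counts in place of 300, 47 LINC genes were called higher and 28 lower. Shares of all genes at that minimum are not given here.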

How the data were processed

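Polyadenylated RNA of 6 samples was sequenced in stranded, paired-end libraries. Per the labels and the study's methods, the authors trimmed reads with cutadapt, mapped them to GRCh38 with STAR and quantified isoforms with RSEM. Neither versions nor RSEM's strand setting were given in the sources used here, so reads of antisense, overlapping or near-identical genes may be exchanged. The deposited expected counts are RSEM's fragment estimates, not normalized. The deposited TPM and FPKM are scaled by the authors for length and library (FPKM was not used), and the deposited isoform values are percent shares of each gene's abundance.

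Expected counts were summed per gene, rounded and tested with edgeR 4.0.16 (glmQLFTest, TMM, filterByExpr). Isoforms and usage were tested with limma 3.58.1 (voom, diffSplice), in R 4.3.3. DESeq2 1.42.0 was an alternative. P-values were two-sided and adjusted by Benjamini-Hochberg over all features tested (threshold 0.05). The scripts were tested on simulated data, in which the usage test made more false calls than its threshold allows where isoforms had dispersions of their own.

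Named were the 12 largest rises and falls called without overlap in TPM, the 8 most abundant members, list members, the 10 usage calls with the largest shift, and the genes nearest to the minimum of 300. LINC00173 was named after its values were seen. Of the symbols ending in HG, the coding gene PGGHG was left out of the host class. The members and lists were chosen with earlier results of these data known. Symbols are those of the deposited tables. Sequences, coordinates, neighbouring genes and promoter motifs were not analysed here. Alternatives were other tools, scalings, filters, count minimums and units, a fold threshold, the replicate block, and leaving out each sample.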

Additional observations from a re-analysis of the deposited data

How the results depend on the processing

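The number of changed members (59) was 38 at a minimum of 1000 counts, with 20 higher, and 4 with a test against a fold of 1.5 (edgeR glmTreat). It was 50 to 59 with 1 sample left out, with 26 to 32 higher and 23 to 27 lower. By limma on log2(TPM + 0.1), 16 members were lower and 0 of the called members passed 2-fold in the fitted change, where LINC01341 was at 0.97 in log2. By edgeR the count past 2-fold was 10 at a minimum of 100 counts, 1 at 1000, and 2 to 4 with 1 sample left out. DESeq2 called 44 members, all among those called by edgeR. The 34 changed isoforms became 55 with DESeq2 and 15 to 18 with 1 sample left out. The 13 usage calls became 3 with diffSpliceDGE, 7 with a shift of at least 10 points, and 11 to 13 with 1 sample left out. The cause of these differences was not tested, other than that a higher count minimum leaves fewer genes. Apart from diffSpliceDGE and the minimum of 1000 counts (both above), shares of all features called under these alternatives are not given here.

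Any pairing by replicate number was weak. Deviations of same-numbered samples correlated at 0.041, 0.028 and 0.057, and those of differently numbered samples at −0.038 to −0.002. Each sample thus correlated best with its own number, and whether the numbers mark pairs was not tested. With the replicate number as a block, 64 members were called (36 higher, 28 lower), 17 isoforms and 14 usage changes. Shares of all features called under the block are not given here. Under the block LINC00205 (adjusted p = 0.044) and LINC00467 (0.041) were called by edgeR and the usage call of LINC00472 was lost (0.0501).

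Directions reversed in the 7 named members that follow, none of them called under the alternative that reversed it. LINC00327 was at −0.0012 with no filter and between −0.084 and 0.11 with 1 sample left out. LINC00632 was at −0.055 on TPM and between −0.020 and 0.051 with 1 sample left out. The ranges with 1 sample left out were −0.0057 to 0.19 for LINC00461, −0.046 to 0.092 for LINC00888 and −0.011 to 0.12 for LINC01001. LINC00963 was at 0.021 and LINC02381 at 0.030 with library size alone, and LINC02381 was at 0.019 on TPM. With library size alone all genes shifted to a median of 0.05 in log2, and 6 members changed sign, 0 of them called.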
